A study of Mus musculus with 1203 samples.

Results

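The cells described here are wild-type colonic tuft cells, chosen by their own levels of 2 genes from 590 wild-type wells labelled tuft, in a series of 1203 wells. A well was taken when it had at least 1000 genes above 0 TPM, Trpm5 at 50 TPM or more and Dclk1 at 100 TPM or more. TPM is a level per transcript length, scaled to the same total in every cell, so levels can be compared between genes. The members were 56 cells of plate set 1, 69 of plate set 3, and 24, 51, 46 and 35 cells of the 4 plates of plate set 6, which is 47.6% of the 590 wells. They came from the colons of female mice aged 11 weeks of genotype wt, and the labels name no treatment. The sort took EPCAM+ SIGLEC-F+ cells into plates, and each well was read by a modified Smart-seq2, a full-length method for single cells that starts from polyadenylated RNA. Wells in which GAPDH amplified late or not at all were dropped, per the labels. The series also holds wells from Villin-Cre; IPMKf/f mice, in which the Villin promoter drives Cre in intestinal epithelium, and these are not used here. No label names an animal, so the wild type counts as 1 sample and no p-value is given. The SD between the 3 plate sets may be technical.

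Tuft cells are rare epithelial cells with a brush of stiff microvilli that sense luminal compounds through a pathway shared with taste cells. In that pathway a G protein and phospholipase C beta release calcium through inositol trisphosphate receptors, and calcium opens TRPM5, a cation channel. Tuft cells depend on the transcription factor POU2F3, release interleukin 25, leukotrienes and acetylcholine, and carry many signalling proteins better known from blood cells.

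Of the wells with at least 1000 genes above 0, 60.3% were members. The share was 65.9%, 63.3% and 57.4% in plate sets 1, 3 and 6, and ran from 38.7% on plate 1 of set 6 to 69.6% on plate 2 of set 1. Of the other cells of the gate, 78.4% had both genes below the minimum and 48.6% had both at 0. Dclk1 alone was too low in 31 cells and Trpm5 alone in 9. Among cells that met the other criteria, the member with the least Trpm5 had 56.2 TPM and the highest value outside was 49.8 TPM. For Dclk1 the same values were 109.7 and 95.6 TPM, and for detected genes 1006 and 969. Members had a median of 2755 genes above 0 (range 1006 to 7695), with plate-set medians of 2677.5, 2849 and 2699. Read depth is unknown from TPM. Rn18s-rs5, an 18S rRNA entry, took a median of 80.7% of a member's TPM (range 19.4% to 88.7%), mitochondrial genes 2.37% and nuclear protein-coding genes 7.69%. A level of 100 TPM is therefore high for a messenger RNA here. The median protein-coding share was 11.8%, 8.47% and 6.22% in plate sets 1, 3 and 6. Over 2029 genes of at least 10 TPM, 79.3% to 87.3% lay within 2-fold between any pair of plate sets, and plate set 1 lay above plate set 6 by a median of 0.59 on the log2 scale.

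Of the 5 genes that mark the cells, 4 were present in nearly every member and the fifth in few. Trpm5 and Dclk1 chose the cells, so their levels are a description. Trpm5 (ENSMUSG00000009246, chromosome 7 from 143069153 to 143094642, GRCm38) had a lowest, median and highest value of 72.5, 271.9 and 660.6 TPM in plate set 1. The same values were 71.5, 253.7 and 542.04 TPM in plate set 3 and 56.2, 162.99 and 1279 TPM in plate set 6. The ranges overlapped almost fully, and the median was lowest in plate set 6. Dclk1 (ENSMUSG00000027797, chromosome 3 from 55242364 to 55539068), a microtubule-associated kinase, had medians of 595.5, 472.9 and 412.6 TPM in plate sets 1, 3 and 6. Its lowest and highest members had 109.7 and 2214 TPM.

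Ptpn6 (ENSMUSG00000004266, chromosome 6 from 124720707 to 124738714), the tyrosine phosphatase SHP-1 of blood cells, was above 0 in every member. Its lowest, median and highest values were 13.9, 451.8 and 2858 TPM in plate set 1, 11.8, 283.6 and 2099 TPM in plate set 3 and 4.19, 305.3 and 1996 TPM in plate set 6. Every cell had the transcript, but the lowest and the highest cell of each plate set lay far apart. Matk (ENSMUSG00000004933, chromosome 10 from 81252935 to 81263365), a kinase that acts on SRC-family kinases, was above 0 in 99.3% of members. Its medians were 306.9, 281.5 and 204.4 TPM, and its highest cell had 1612 TPM.

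Atp2b4 (ENSMUSG00000026463, chromosome 1 from 133699457 to 133801041), a calcium pump of the plasma membrane, went against its place as a marker. It was above 0 in only 29 members (10.3%, exact Clopper-Pearson 95% interval 7.02% to 14.5%, for counting error over cells only), which were 5, 6 and 18 cells of plate sets 1, 3 and 6. In 28 of those 29 cells it exceeded 1000 TPM, with a median of 3979 TPM over the 29 and a maximum of 26794 TPM in plate set 1. The mean over all members, 664.4 ± 317.1 TPM (SD, n = 3 plate sets), is thus a level that hardly any single cell had. Among the other cells of the gate 4 had it (2.16%). GENCODE M21 gives the gene 8 transcripts of very different length, up to 11725 bases. Whether reads assigned to a short transcript give these high values was not tested.

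**Figure D1:**
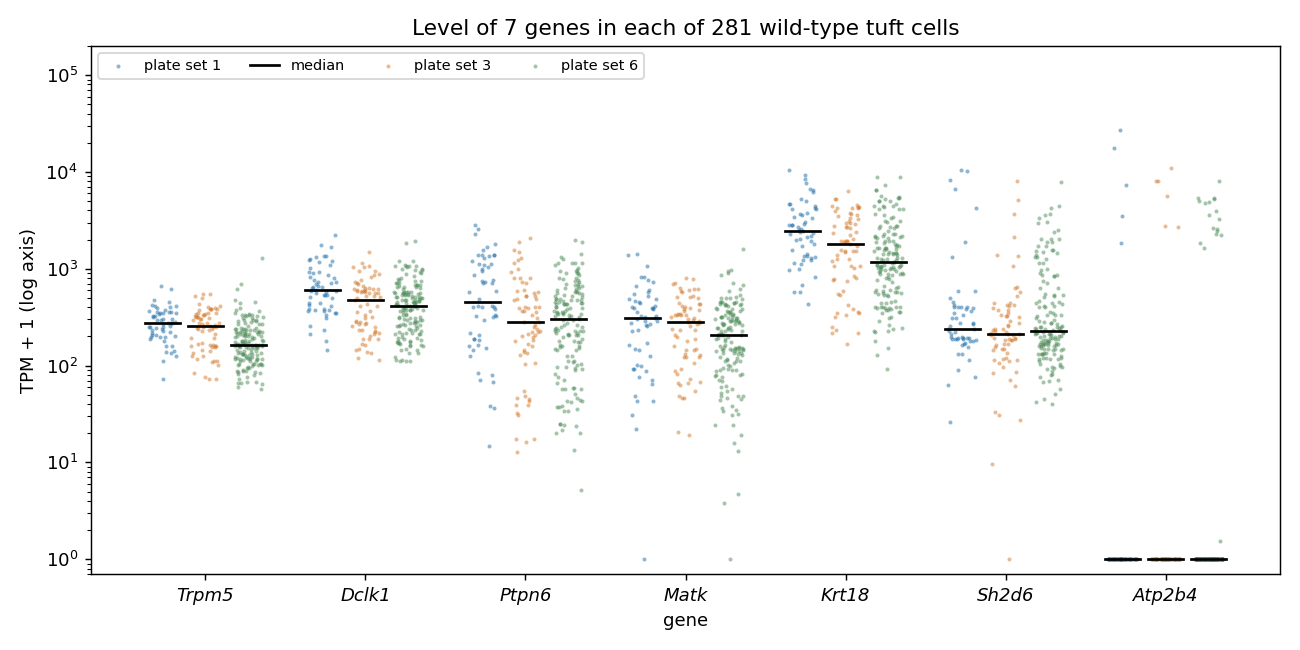
Level of 7 genes in each member, as TPM + 1 on a log axis, with 1 point per cell, colours for plate sets 1, 3 and 6 and black bars at the plate-set medians. Trpm5 and Krt18 are present in every cell, Sh2d6 has a main cloud with a tail above 1000 TPM, and Atp2b4 is at 0 except in 29 cells.

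The most abundant named transcripts were keratins of simple epithelium, a nuclear RNA and signalling genes. A mean of at least 100 TPM in each plate set was reached by 0.685% of 18677 detected genes, leaving out mitochondrial genes and Rn18s-rs5. Malat1, a nuclear non-coding RNA, led with 3234 ± 335.7 TPM (SD, n = 3 plate sets here and below). It was followed by Krt18 with 2319.6 ± 686.2 TPM, the LIM-domain gene Crip1 with 1686 ± 407.1 TPM and Krt8 with 1187 ± 305.3 TPM. Krt18 and Krt8 encode partner keratins. Krt18 ranged from 91.8 to 10519.9 TPM over the members and Krt8 from 50.5 to 4280.5 TPM, and both were above 0 in every cell. Sh2d6, an SH2-domain gene, had 722.3 ± 236.96 TPM. Cd24a, a surface glycoprotein, had 559.1 ± 148.3 TPM, close to Dclk1 at 555.6 ± 136.3 TPM and Ptpn6 at 519.04 ± 182.1 TPM. Sh2d6 had the highest of these 4 means in each plate set, by little in plate set 3 (535.99 against 531.5 TPM for Cd24a), and the order of the other 3 genes differed between plate sets. By the median over all members Sh2d6 was the lowest of the 4, at 222.5 TPM. Cd24a had a median of 246.2, Ptpn6 of 333.3 and Dclk1 of 448.85 TPM.

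The remaining places among the 20 highest went to respiratory chain, metabolic and cytoskeletal genes, with Atp2b4, Matk, Spink1 and Eef1a1. Uqcrq had 668.1 ± 154.8 TPM, Atp5b 519.5 ± 70.2 TPM and Cox7c 399.9 ± 182.1 TPM. Adh1, an alcohol dehydrogenase, had 385.9 ± 64.3 TPM and Ftl1, the ferritin light chain, 420.2 ± 124.04 TPM. Actb, Eef1a1, Myo15b, Matk and Actg1 lay between 296.9 and 365.5 TPM. Spink1, a trypsin inhibitor, had 339.2 ± 81.1 TPM but was above 0 in 50.5% of members, and Uqcrq in 66.5%. A high mean did not always mean presence in most cells. Among genes of at least 100 TPM in each plate set, 12 were above 0 in fewer than 50% of members. They include Atp2b4, Mrpl52 (208.8 TPM, 23.1% of cells), Smim22 (158.1 TPM, 24.9%) and Cox5b (192.2 TPM, 45.2%); Mrpl52 and Cox5b were chosen after their values were seen.

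Consistent detection picked out another set, with many signalling genes. Above 0 in at least 95% of members in each plate set were 61 of 18677 genes (0.327%), and 16 of them were above 0 in every member. Among these 16 were Krt8, Krt18, Malat1, Trpm5 and Dclk1, the phosphatases Ptpn6 and Ptpn18, the calcium pump Atp2a3 of the endoplasmic reticulum, the microvillar cadherin Cdhr5, Myo15b, Lars2 and Ivns1abp. Trpm5 and Dclk1 were above 0 in every member by the rule that chose the cells. The 61 genes had a median detection of 99.3% in members and 81.1% in the other cells of the gate, where 5 of the 61 reached 95% in each plate set. Detection was not tied to a high level in TPM. As TPM is a level per transcript length, equal TPM does not mean equal read numbers, and the part of length in detection was not tested. Clmn, which encodes calmin, was above 0 in 99.3% of members at a mean of only 8.97 ± 1.27 TPM, and Tmem72, chosen after its values were seen, in 98.6% at 5.89 ± 1.097 TPM. No ribosomal protein gene was among the 61, and 26 of the 61 also reached 100 TPM in each plate set. In members with at least 2000 genes above 0, the number of genes detected this consistently was 1.87 times as high.

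**Figure D2:**
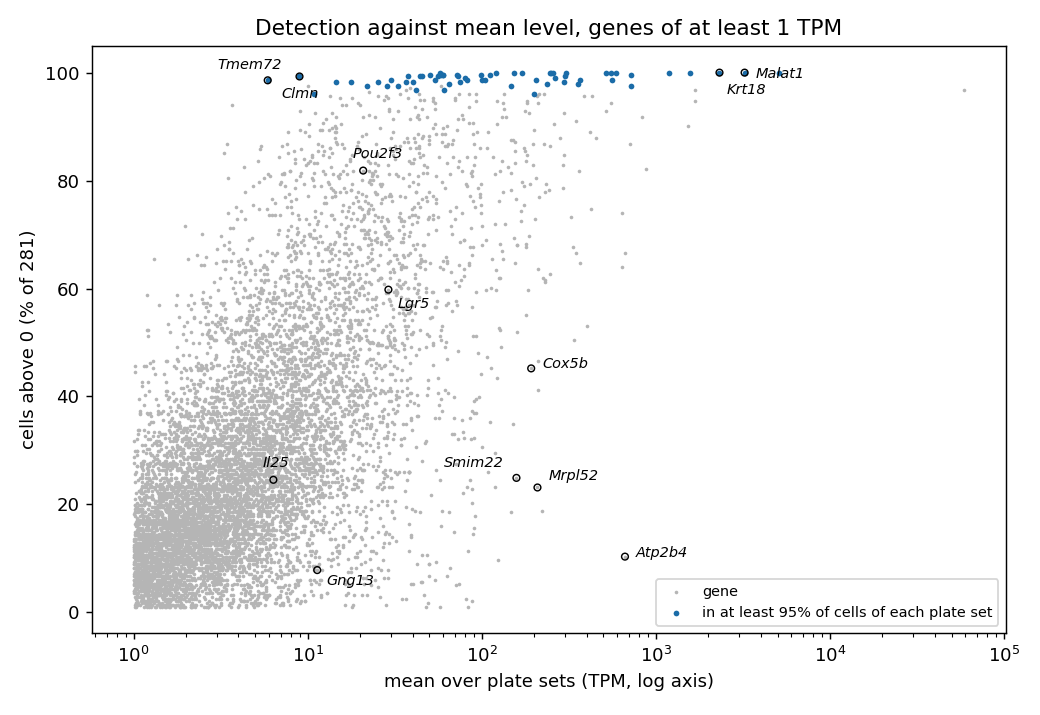
Share of members above 0 (%) against mean level (TPM, log axis) for each gene of at least 1 TPM. Blue points are the genes above 0 in at least 95% of cells in each plate set, from Tmem72 at 5.89 TPM upwards, and Atp2b4 lies at the lower right.

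Core tuft genes were present as a group. Of 30 listed genes all were detected, 25 were above 0 in at least 50% of members in each plate set and 15 in at least 95%, beside 1195 (6.4%) and 61 of 18677 genes in all. Their median level was 84.3 TPM against 0.834 TPM for all detected genes. A member had a median of 25 of the 30 genes above 0 (range 18 to 29), and that median was 25 in each plate set, against 7 (range 0 to 26) in the other cells. Trpm5 and Dclk1 are among the 30. The genes found in fewest members were Gng13 (7.83%), Atp2b4, Il25 (24.6%), Gfi1b (41.6%) and Alox5ap (51.2%).

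Most signalling genes of blood-cell type, some of which are also core tuft genes, were present in most members. Of 17 genes, 16 were above 0 in at least 50% of members in each plate set and 11 in at least 95%. The shares over all detected genes were 6.4% and 0.327%. The adaptor Fyb had 73.2 ± 10.5 TPM and was above 0 in 99.3% of members. Pik3r5, a regulatory subunit of PI3 kinase gamma, had 98.3 ± 20.5 TPM (99.6%), and its catalytic partner Pik3cg 33.7 ± 18.4 TPM (96.1%). Plcg2, a phospholipase, was above 0 in 98.2%, Vav1, a guanine nucleotide exchange factor, in 96.8%, and Inpp5d, an inositol phosphatase, in 98.6%. Ptprc, which encodes CD45, was above 0 in 76.9% of members at 12.6 ± 5.42 TPM. The exception was Fyn, a SRC-family kinase, in 55 cells at 2.71 TPM.

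Transcripts of the taste pathway were detected unevenly, and a gene at 0 may have been missed. Plcb2, the phospholipase, was above 0 in 96.8% of members at 42.1 ± 3.42 TPM, and Trpm5 in all by the rule that chose them. Among G protein genes, Gnat3, the alpha subunit gustducin, was above 0 in 50.2% at 17.1 ± 6.73 TPM and Gng13 in 22 cells. Gnb3 was at 0 in every member, which allows a share of cells with a detected transcript of up to 1.07% (3 cells of the total, for counting error only), while Gnb1 was above 0 in 69.04%. Of the receptor genes, Tas1r2 was at 0, Tas1r1 was above 0 in 2 cells and Tas1r3 in 34. Ffar3, a receptor for short-chain fatty acids, was above 0 in 72.6% at 34.5 ± 11.4 TPM and the succinate receptor Sucnr1 in 33 cells. For calcium release, Itpr2 was above 0 in 99.3% at 45.1 ± 11.6 TPM, whereas Itpr3, the receptor known from taste cells, was above 0 in 40.9% at 1.23 ± 0.293 TPM. Itpr2 lay above Itpr3 in each plate set, with means of 58.1 against 1.49, 41.5 against 1.296 and 35.8 against 0.912 TPM.

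Transcription factors lay at lower levels. Sox9 was above 0 in 97.5% of members at 28.5 ± 5.84 TPM, Spib in 95.02% at 43.9 ± 15.4 TPM, Nfatc1 in 85.4% at 8.35 ± 1.85 TPM and Pou2f3 in 81.9% at 20.8 ± 5.503 TPM. Members without Pou2f3 still met the rule on Trpm5 and Dclk1. Hmx3 was above 0 in 56.9% and Hmx2 in 43.4%. Atoh1, the secretory lineage factor, was at 0 in all members.

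Genes for tuft cell products fell into widely and rarely detected ones. For leukotriene synthesis, Alox5 was above 0 in 96.1% of members at 84.3 ± 23.1 TPM, Ltc4s in 83.3% at 154.9 ± 20.2 TPM and Alox5ap in 51.2% at 88.8 ± 63.1 TPM. For prostaglandins, Ptgs1 was above 0 in 91.8% and Hpgds in 73.3%, while Ptgs2 was above 0 in 1 cell. Chat, the acetylcholine-synthesising enzyme, was above 0 in 83.99% at 17.5 ± 3.99 TPM. The vesicular transporter Slc18a3 was above 0 in 36 cells, and the choline transporter Slc5a7 and the esterase Ache were at 0. Il25 was above 0 in 69 cells (24.6%, exact 95% interval 19.6% to 30.02%, for counting error over cells only). Its highest value was 373.2 TPM. Tslp and Il33 were at 0. Among receptor genes, Il17rb was above 0 in 80.8%, Il13ra1 in 74.4% and Il4ra in 64.4%.

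Genes known from the neuronal-type and immune-type tuft subsets were both found. Of 13 immune-type genes, 9 were above 0 in at least 50% of members in each plate set, beside 6.4% of all detected genes, among them Siglecf (87.5%, 68.4 ± 18.5 TPM), Cd300lf (95.4%, 70.4 ± 10.5 TPM) and Rac2 (94.7%). Of 11 neuronal-type genes 2 were, Pou2f3 and Rgs2. Nrgn was above 0 in 40.2%, Sez6l2 in 31.3% and Nrep in 10.7%. The sort took SIGLEC-F+ cells, so the protein of 1 immune-type gene helped to choose them. Of 19 cell cycle genes none was above 0 in 50% of members in each plate set, which is near the 6.4% of all detected genes, and Mki67 was above 0 in 11 cells.

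Markers of colonocytes, goblet cells, lymphocytes, macrophages and stroma were low as lists, whereas 3 other lists did not lie below the other cells of the gate on average. Goblet markers summed to 4.43 TPM per cell on average (3.66 to 5.51 by plate set) against 2706 TPM in the other cells of the gate (1872 to 3387.5), and Tff3, Clca1, Spink4 and Reg4 were at 0. Colonocyte markers summed to 197.7 TPM (at most 274.8 in a plate set) against 4408 TPM (2249 to 6252). In 3 members they exceeded 1000 TPM together, and the highest Car1 value was 10628 TPM. Lymphocyte markers summed to 1.15 TPM and macrophage and dendritic markers to 1.47 TPM, with Lyz2, C1qa, Cd3d, Cd3e and Trac at 0. The eosinophil and mast cell list summed to 37.5 TPM against 6.14 TPM, nearly all of it Kit, and Prg2, Epx and Cpa3 were at 0. Stem and progenitor markers summed to 117.1 TPM (80.96 to 149.5 by plate set) against 110.04 TPM (84.8 to 141.7), with overlapping ranges. Enteroendocrine markers summed to 26.1 TPM against 6.24 TPM. Stromal and endothelial markers summed to 1.36 TPM, with Dcn and Vim at 0. A single member held 42609 TPM of Hba-a2, a globin gene, beside 281.4 TPM of Trpm5 and 387.1 TPM of Dclk1. Without this cell and the 3 above, the number of consistently detected genes was 62 and the number of genes of at least 100 TPM 0.969 times as high.

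Some genes listed as markers of other cells were present in most members. Kit, a receptor tyrosine kinase of mast cells, was above 0 in 95.4% of members at 37.5 ± 7.18 TPM, against 47.03% and 5.56 TPM in the other cells of the gate. Ceacam1 was above 0 in 96.1% at 43.7 ± 7.501 TPM, below its 111.7 TPM in the others. Lgr5, known from crypt stem cells, was above 0 in 59.8% of members at 29.1 ± 8.81 TPM, against 30.8% and 5.07 TPM in the others. The exact 95% interval of its share of members was 53.8% to 65.6%, for counting error over cells only. Prom1 was above 0 in 80.8%. Other stem cell genes were rare or absent: Ascl2 was above 0 in 29 cells and Smoc2 in 10, and Olfm4 was at 0. Sct, which encodes secretin, was above 0 in 67 cells at 26.1 ± 0.479 TPM, while the other 11 enteroendocrine markers, such as Chga and Neurod1, were at 0 in every member.

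**Figure D3:**
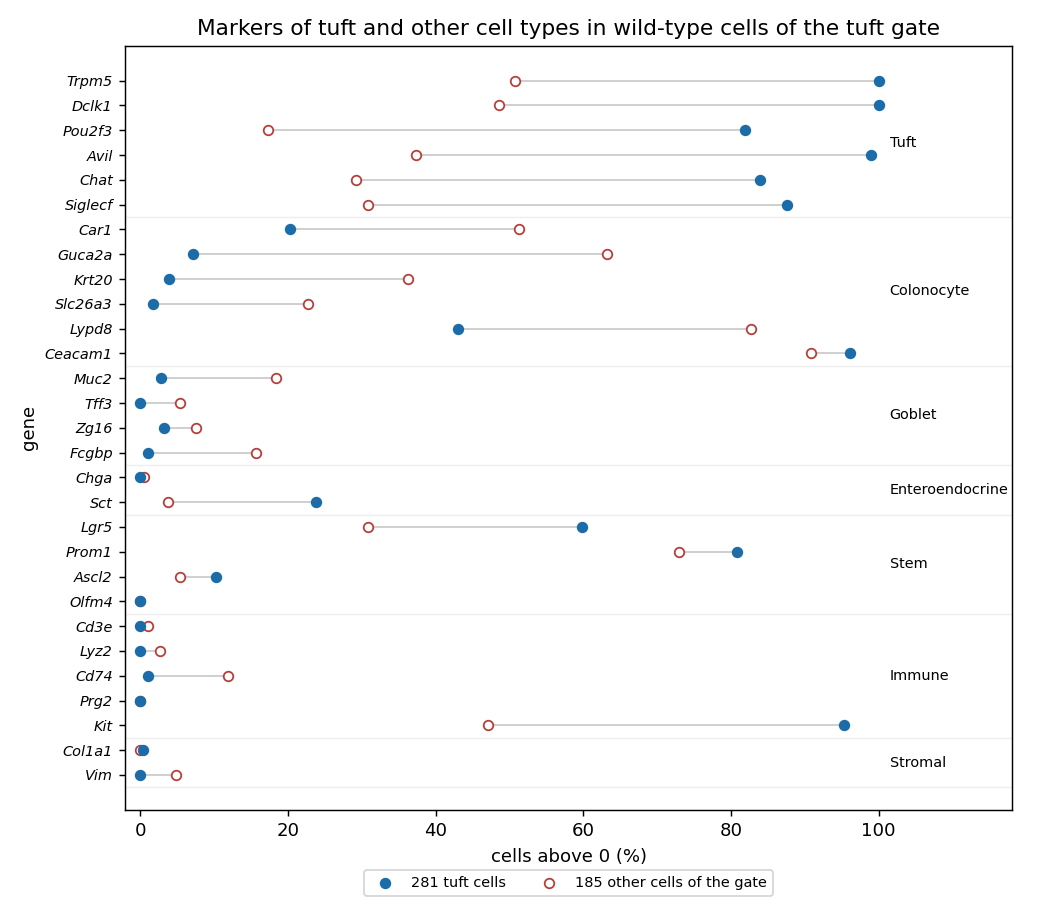
Share of cells above 0 (%) for tuft genes and markers of other cell types in members (filled) and in the other cells of the tuft gate (open). Goblet, lymphocyte and stromal markers lie near 0 in members, whereas Kit at 95.4%, Lgr5 at 59.8% and Sct at 23.8% lie above the other cells.

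The contrast with the other cells of the gate follows from the rule and is given as a description. Of 2605 genes with a mean of at least 10 TPM in either group, 10.3% were at least 2-fold higher in members in each plate set and 8.64% at least 2-fold lower, on the log2(mean TPM + 1) scale, which understates the change of low genes. The number higher was 1.75 times as large without plate set 6, with fewer sets to pass. The median difference over all 2605 genes was 0.07. All 28 core tuft genes that reached the minimum were higher, among them Trpm5 and Dclk1, which chose the groups. A gene can reach the minimum through the members alone, so this count is no test. Tspan6 had 70.2 TPM against 2.29 TPM in the others, Rgs13, a regulator of G protein signalling, 58.8 against 2.87, and Ltc4s 154.9 against 10.1. Fcna, a ficolin, had 55.8 against 3.33 TPM and the transcription factor St18 30.2 against 1.65 TPM. Fabp1, a fatty acid binding protein of enterocytes, was also higher, at 54.6 against 0.318 TPM. It was above 0 in 74 members (26.3%) and in 0.541% of the others.

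The genes that lay farthest below the other cells were mostly those of colonocytes and goblet cells. Muc2, the goblet mucin, had 0.252 against 548.5 TPM, Zg16 1.43 against 833.2 TPM, Guca2a 7.27 against 1359.8 TPM and Sprr2a2 18.3 against 3469 TPM. Of 16 immediate early genes, 12 reached the minimum, which the other cells alone can meet. Of these 12, 8 were lower in members, beside 8.64% of all 2605 genes compared. None of the 12 was higher, and their median log2 difference was -2.25. Fos, for example, had 14.8 ± 1.92 TPM and was above 0 in 61 members (21.7%), against 169.2 TPM and 86.5% of the others. Jun had 14.6 against 78.9 TPM and Atf3 1.31 against 38.1 TPM. The immediate early median was -2.25 with TPM rescaled without Rn18s-rs5 and mitochondrial genes, and -2.26 over nuclear protein-coding genes. On each of these scales all 16 reached the minimum and 10 were lower, beside 695 of 7754 and 824 of 8989 genes in all. The other cells had a median of 2550 genes above 0 and of 3.55% mitochondrial TPM. The part of these in the differences was not tested.

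Cell-to-cell spread was measured on values rescaled to a total of 1000000 per cell without Rn18s-rs5, mitochondrial genes and spike-ins, for 1195 genes above 0 in at least 50% of members in each plate set. Spread is the coefficient of variation (CV, the SD over cells divided by the mean), whose square was set against the running median of genes of like mean. Genes at least 1 log2 unit above that trend in each plate set are called high spread and those 1 unit below low spread. There were 56 high-spread genes (4.69%) and 65 low-spread genes (5.44%). The high-spread number was 97 without plate set 1 and 90 without plate set 3, where genes had fewer plate sets to pass.

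Sh2d6 was the core tuft gene with high spread, among the 25 that were above 0 in enough cells to be measured, which leaves out Atp2b4. Its CV was 2.48, 2.51 and 1.704 in plate sets 1, 3 and 6. In deposited TPM its plate-set medians were 238.9, 211.03 and 225.4 TPM and its highest cells 10364, 7989 and 7841 TPM. Most cells thus lay near a common level while a tail of cells, present in each plate set, lay far above it. In all, 19 cells held 50% of the summed rescaled value. For each of the other high-spread genes named here fewer cells held that share, from 4 to 13. Lrch4 had a mean CV of 4.49 and 5 cells held 50% of its sum, as did 5 cells for Nbr1, an autophagy receptor, and 4 for Lap3, an aminopeptidase. Psma3, a proteasome subunit, Ndrg1, Cachd1, Cttn, B4galt5 and Gbf1 had mean CVs from 2.58 to 3.61. Psma3 had a broad upper tail too, with a 90th percentile of 3312 rescaled units against a median of 166.1. Xist, the RNA that coats the inactive X chromosome, had a mean CV of 3.401, a median of 10.2 TPM and a highest value of 1651 TPM. The 11 genes named here stayed high spread on deposited TPM, and so did the 10 of them that could be measured on a scale of nuclear protein-coding genes alone.

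Low spread was found for Trpm5, with a mean CV of 0.404, where 98 cells held 50% of its sum. That value describes cells chosen to have at least 50 TPM, which removes low cells. Genes that were not used in the choice also lay low: Trak1, a mitochondrial transport adaptor, had a mean CV of 0.499, Plcg2 0.595, Abhd2 0.593, Strip2 0.650, Clmn 0.660, the microvillar myosin Myo1a 0.665 and Gtf3c1 0.672. These 8 genes stayed low spread on both other scales. The trend compares genes of like mean value, not of like read number, and the part of transcript length in spread was not tested. Of the 25 core tuft genes measured, 5 were low spread and 1 was high spread. Trpm5 and Dclk1, which chose the cells, are among the 5, and the rule removes low cells of both. With Trpm5 and Dclk1 included, the median distance of the 25 genes from the trend was -0.71 log2 units, beside 0.03 for all 1195 genes. For 51 ribosomal protein genes it was 0.23.

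**Figure D4:**
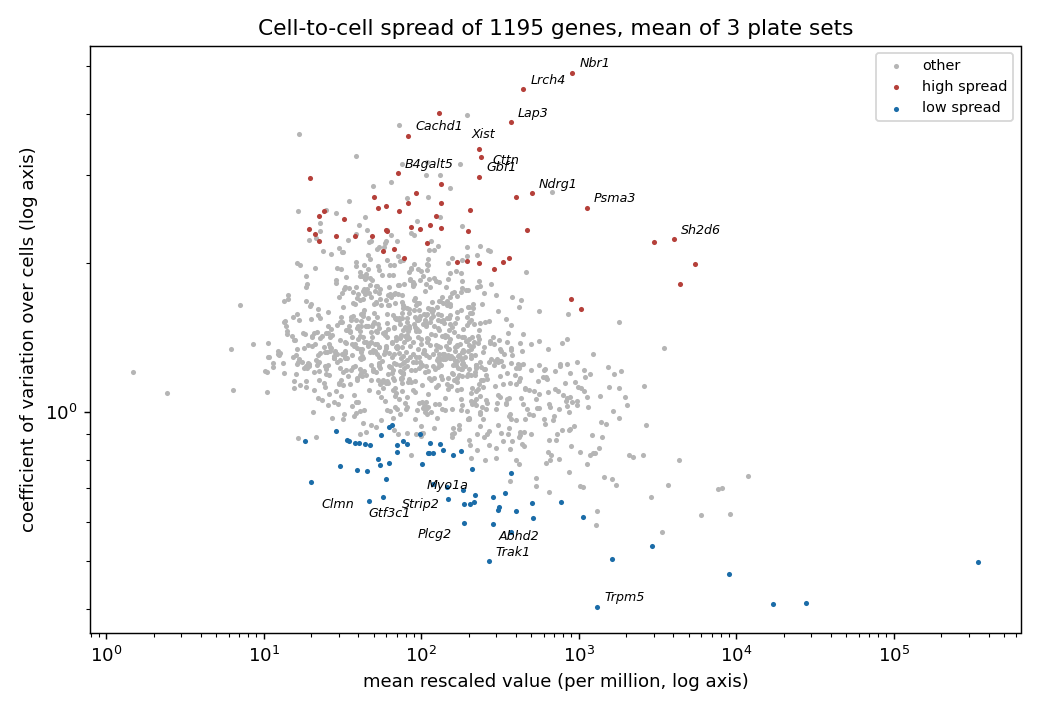
Coefficient of variation over cells against mean rescaled value for 1195 genes, both averaged over 3 plate sets and on log axes. High-spread genes (red) include Nbr1, Lrch4 and Sh2d6, and low-spread genes (blue) include Trpm5 and Trak1.

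Trpm5 varied little, in cells chosen by its level, and Sh2d6 varied most among the 25 core tuft genes whose spread was measured. The promoters of these genes and of the partner keratins described next are shown, as a choice among genes in the results on spread or co-variation. They are RefSeq promoter windows on GRCm38.p6, 5′ to 3′, in lower case, without bases of the gene's GENCODE M21 exons. The Sh2d6 window lies before the RefSeq start but inside the longer GENCODE gene. Trpm5 lies at chr7:143094643-143094892, minus strand, Sh2d6 at chr6:72520037-72520286, minus strand, Krt8 at chr15:102004483-102004592, minus strand, and Krt18 at chr15:102027966-102028179, plus strand.
Trpm5: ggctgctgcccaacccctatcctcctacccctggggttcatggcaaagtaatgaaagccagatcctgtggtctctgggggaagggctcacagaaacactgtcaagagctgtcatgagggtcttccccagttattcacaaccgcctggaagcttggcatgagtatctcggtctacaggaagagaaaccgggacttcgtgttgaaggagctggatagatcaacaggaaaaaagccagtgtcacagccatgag
Sh2d6: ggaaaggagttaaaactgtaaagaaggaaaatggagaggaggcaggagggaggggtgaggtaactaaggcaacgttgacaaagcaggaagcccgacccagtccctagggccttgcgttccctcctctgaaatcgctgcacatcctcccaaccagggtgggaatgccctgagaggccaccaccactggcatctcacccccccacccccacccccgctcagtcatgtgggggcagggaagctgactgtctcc
Krt8: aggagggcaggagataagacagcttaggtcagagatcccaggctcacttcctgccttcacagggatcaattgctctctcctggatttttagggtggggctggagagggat
Krt18: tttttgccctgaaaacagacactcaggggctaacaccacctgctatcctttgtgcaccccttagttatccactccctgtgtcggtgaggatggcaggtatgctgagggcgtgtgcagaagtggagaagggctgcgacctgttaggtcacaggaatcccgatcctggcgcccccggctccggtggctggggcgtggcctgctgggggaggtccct
Both strands of the 250 bases before each RefSeq start were searched for ATGCAAAT, the octamer bound by POU factors, for TATAAA and for GGGCGG; capitals would mark a match, and these windows hold none. Of 13 genes looked up, 9 had an entry. Among those not shown, Ptpn6 had 5 matches to GGGCGG, and the 3 windows of Espn had 2, 0 and 1. Dclk1, Matk and Atp2b4 held no match. Over all 32851 promoter entries, 1.60% held the octamer, 12.4% TATAAA and 32.7% GGGCGG. Krt8 and Krt18 are neighbours on chromosome 15 and lie on opposite strands.

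Co-variation was measured as the Spearman rho between 2 genes over the cells of a plate set, adjusted for the number of genes above 0, on rescaled values. The cells of a plate set share plates and a fixed total, and rho is a description with no test. Of 713415 pairs, 0.0257% had a rho of at least 0.4 in each of the 3 plate sets. The median rho over all pairs was 0.0249, 0.0257 and 0.0171 in plate sets 1, 3 and 6. Without plate set 6, which leaves fewer and smaller sets to pass, 4.09 times as many pairs were called.

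Among pairs without ribosomal protein, predicted or unnamed genes, the strongest linked keratin, brush and other tuft genes, which are called a block here. Krt8 and Krt18 had a rho of 0.926, 0.945 and 0.896 in plate sets 1, 3 and 6. Cd24a went with Dpysl2 at 0.726, 0.750 and 0.644 and with Krt8 at 0.735, 0.698 and 0.639. Espn, the actin bundler espin of microvilli, went with Krt8 at 0.645, 0.689 and 0.623. Krt18 went with Espn and Cd24a, and Reep5 with Cd24a, with a lowest rho of 0.585 or more. Of these 6 pairs, the one between the keratins not counted, 5 stayed at 0.4 or above under each of 5 other ways of computing them, while Reep5 with Cd24a fell to 0.386 under 1 of them. Among called pairs without ribosomal protein, predicted or unnamed genes, 67 included Cd24a, Krt8 or Krt18, and Cd24a alone was in 35.

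Marker genes differed in how far they joined this block. Trpm5 and Dclk1 chose the cells, which narrows their range, and the part of this in their rho was not tested. Matk went most closely with Cdkn1c, an inhibitor of cyclin-dependent kinases, at 0.595, 0.601 and 0.555, then with Cdhr2 and Krt18, whose lowest rho was 0.453 and 0.452. Trpm5 had its closest partner in Atp2a3, at 0.494, 0.504 and 0.432, and had a lowest rho of 0.393 with Spib. Ptpn6 was closest to Avil and Plcg2, with a lowest rho of 0.348 and 0.306. Dclk1 had no partner at 0.4 or above in each plate set: Suco and Trak1, among its closest, reached a lowest rho of 0.222 and 0.217. Dclk1 and Krt18 had a rho of 0.131, 0.131 and 0.0679. Several of these values fell under other ways of computing them. On the nuclear protein-coding scale it was 0.335 for Trpm5 with Atp2a3, 0.173 for Trpm5 with Spib, 0.207 for Ptpn6 with Avil and 0.0860 for Ptpn6 with Plcg2. With Pearson's r it was 0.398 for Matk with Cdkn1c, 0.350 for Matk with Cdhr2 and 0.3996 for Matk with Krt18. Atp2b4 was above 0 in too few cells to be compared.

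Matk also took part in an opposed pattern, named after the values were seen. With ribosomal protein genes, Matk had a median rho of -0.24, -0.29 and -0.28 over 51 genes, and 47 of the 51 were below 0 in each plate set. Cdkn1c was below 0 with 48 and Cdkn1a, another inhibitor of these kinases, with 44. Block genes went the same way in part, with 43 for Espn, 42 for Cdhr5, 40 for Krt8 and 39 for Krt18 and Siglecf. Cd24a, in most called pairs of the block, had 24, and Reep5 had 7 below 0 and 8 above 0 in each plate set. Sh2d6, which was in no called pair, had 39 and Trpm5 36. The median over all 1144 genes compared outside the ribosomal list was 6 of 51, and Dclk1 had 5. Lgr5 was above 0 in each plate set with 35 of the 51 and below 0 in each with none. Lgr5 and Matk had a rho of -0.29, -0.45 and -0.41, Lgr5 and Cdkn1c -0.27, -0.62 and -0.38, and Lgr5 and Cdkn1a -0.32, -0.35 and -0.33. Lgr5 and Sox9 had a rho of 0.301, 0.288 and 0.270. Lgr5 and Krt18 had -0.26, -0.27 and -0.07. Within the members, cells with more Matk, Cdkn1c and Cdkn1a thus tended to have less Lgr5 and less ribosomal protein transcript, the latter shared with part of the block. Lgr5 was above 0 in 59.8% of members and Cdkn1c in 63.7%, so these values rest partly on presence against absence.

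**Figure D5:**
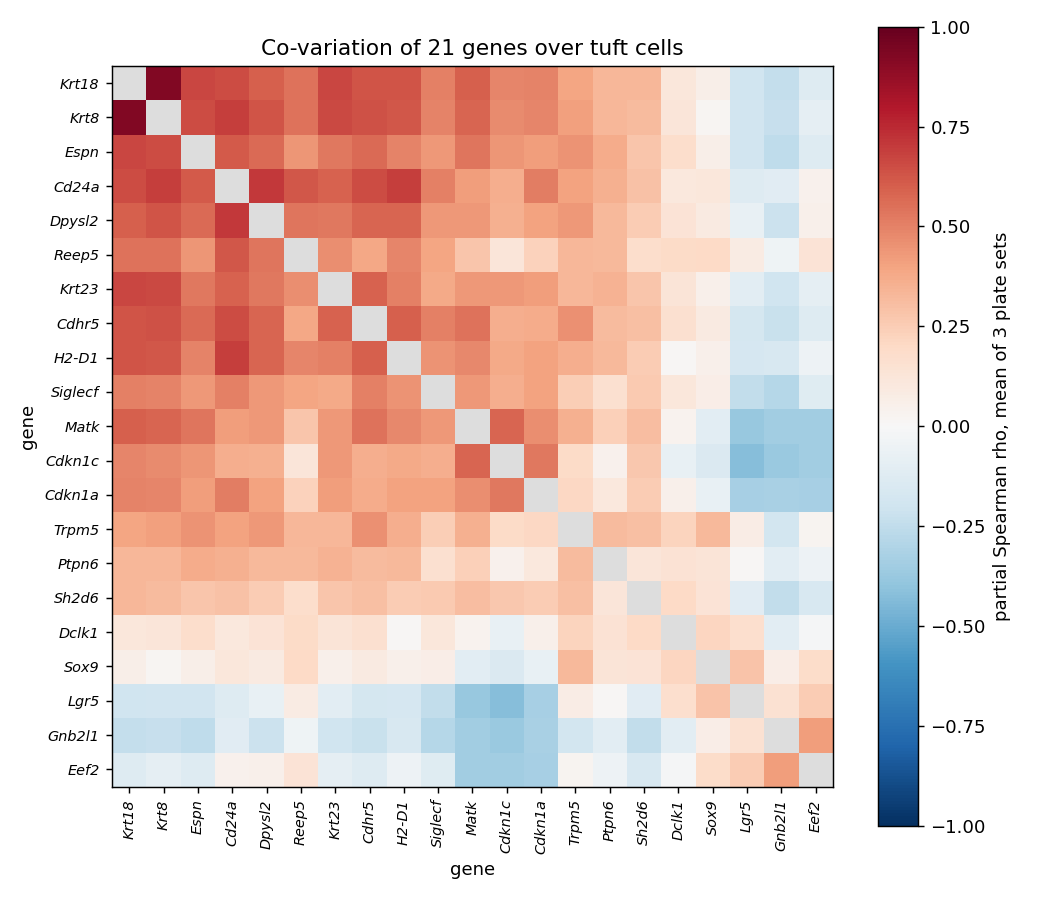
Partial Spearman rho, as the mean of 3 plate sets, between 21 genes over members (colour scale from -1 to 1, diagonal grey). Krt18 and Krt8 lead a positive block, Dclk1 lies near 0 with most genes, and Lgr5 and Eef2 are negative with Matk, Cdkn1c and Cdkn1a. Trpm5 and Dclk1 chose the cells, which narrows their range.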

How the data were processed

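Single-cell libraries of wild-type wells labelled tuft were analysed: 281 members and 185 other cells, of 466 wells with at least 1000 genes above 0 and 590 in all. The deposited values are TPM per gene and cell. Per the submitters' processing notes Bowtie2 2.4.2, RSEM 1.3.3 and mm10 were used; settings and annotation release are not stated there. RSEM divides reads among near-identical copies by a model, so close paralogs and pseudogenes are uncertain, and TPM keeps no read depth. Columns were matched to samples by title, and 560 columns of other samples were not used. No 2 member columns were identical; doublets were not searched for. Of 46517 gene IDs, 46005 matched GENCODE M21. Levels are means of TPM over cells of a plate set, then over the 3 plate sets. Spread and co-variation use rescaled values (trend window 101 genes) and were tested on simulated data. Calls were 61 consistently detected genes, 128 of at least 100 TPM, 56 of high spread, 183 pairs, and 268 higher and 225 lower in the contrast. Named are genes of the 29 lists, the 20 most abundant and 20 most consistently detected, 12 high- and 8 low-spread genes, 10 pairs, 3 partners per marker and 10 genes at each end of the contrast, leaving out predicted, Rik, pseudogene, ribosomal protein, mitochondrial and clone entries and those without a symbol; some genes the rule picks are not reported here. The members and lists were chosen with earlier results of these data known. Python 3.11.15, pandas 2.3.3, NumPy 2.4.6 and SciPy 1.17.1 were used.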

Additional observations from a re-analysis of the deposited data

How the results depend on the processing

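Counts are given here as multiples of the reported count, which is 1. For consistently detected genes the multiple was 1.87 in members with at least 2000 genes above 0, 1.95 at 90% of cells, 0.295 at 99% and 0.426 when detection meant at least 10 TPM. For genes of at least 100 TPM it was 5.73 on values rescaled without Rn18s-rs5 and mitochondrial genes, 10.4 on values rescaled over nuclear protein-coding genes, as rescaling raises every value, and 0.477 for the median over cells. For high spread it was 0.661 on deposited TPM and 0.321 among genes above 0 in 80% of members, where fewer genes were compared. For co-varying pairs it was 2.15 in members with at least 2000 genes, 2.14 on deposited TPM, 17.2 without adjustment for detected genes, 0.339 for Pearson's r and 0.377 over nuclear protein-coding genes. For genes higher in members it was 0.437 with a pseudocount of 10 TPM, 1.81 with no minimum level, 2.56 without Rn18s-rs5 and mitochondrial genes and 3.01 over nuclear protein-coding genes. On these last scales 49.7% and 49.5% of calls were higher, against 54.4% on deposited TPM, and the median difference over all genes was 0.15 and 0.20, against 0.07. All 30 core tuft genes, among them Trpm5 and Dclk1, which chose the groups, were higher on both scales. Beside them were 686 of 7754 and 808 of 8989 genes in all. With the pseudocount of 10 TPM, 25 of 28 core tuft genes were higher. Leaving out 1 plate set at a time gave 1.39 to 1.73 for spread, 1.26 to 4.09 for pairs and 1.10 to 1.75 for genes higher in members. The scale over nuclear protein-coding genes, the first plates alone and the removal of cells with haemoglobin or colonocyte transcripts were chosen after seeing the data. Except where an alternative's construction is named, the cause was not tested. Detection rests on an unknown depth, so a gene at 0 may have been missed. The contrast was taken within each plate set. No paired analysis was possible because no result comes from a test and well numbers do not pair samples.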
